A study of Mus musculus with 27 samples.

Results

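The polyamine metabolism genes described here are 9 of the 54532 genes in a table of expression values from mouse tibialis anterior muscle, chosen by their gene names: Odc1, Azin1, Amd1, Amd2, Srm, Sms, Sat1, Smox and Paox. They were selected on earlier results of these data, in which some of them differed between injured and uninjured muscle. Their differences from uninjured muscle are therefore given as a description with no test, and tests are given for the comparisons among injured muscles and for other genes of the pathway.

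Volumetric muscle loss (VML) is an injury in which more muscle is removed than the tissue can replace. In this study part of the tibialis anterior, the muscle at the front of the shin, was excised in 8-week-old male C57BL/6 mice, and the muscle was taken 3, 7, 14 or 21 days later for bulk RNA sequencing. The 27 samples comprised 5 uninjured muscles and 5, 6, 6 and 5 muscles of the 4 time points in order. The mice carried no engineered allele and received no agent, as far as the labels say, and sham-operated muscle was not analysed here. Nothing in the labels says whether each sample came from its own mouse. The study's methods describe the excision as bilateral and the design text as unilateral, so a pair of samples may share a mouse, and the p-values measure only the spread between these samples, which may be in part technical.

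Putrescine, spermidine and spermine are small, positively charged molecules that bind nucleic acids and are needed for translation and cell growth. Ornithine decarboxylase makes putrescine from ornithine, and the spermidine and spermine synthases then extend it with aminopropyl groups donated by decarboxylated S-adenosylmethionine, the product of Amd1. In the other direction, Sat1 acetylates spermidine and spermine for export or for oxidation by Paox, and Smox oxidises spermine directly back to spermidine. Polyamine enzymes are regulated to a large extent through their translation and the stability of the protein, and the values below are of messenger RNA alone.

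All 9 genes are protein coding, and their positions are given on the mouse genome build GRCm38. Odc1 (ENSMUSG00000011179) spans chr12:17544794-17551505 on the plus strand, Azin1 (ENSMUSG00000037458) chr15:38487427-38519266 on the minus strand, and Amd1 (ENSMUSG00000075232) chr10:40287458-40302186 on the minus strand. Amd2 (ENSMUSG00000063953), the second copy of the S-adenosylmethionine decarboxylase gene, spans chr10:35708675-35711892 on the minus strand. Srm (ENSMUSG00000006442) spans chr4:148591503-148594993 on the plus strand and Sms (ENSMUSG00000071708) chrX:157443855-157492287 on the minus strand. Of the catabolic genes, Sat1 (ENSMUSG00000025283) spans chrX:155213132-155216449 on the minus strand, Smox (ENSMUSG00000027333) chr2:131491496-131525922 on the plus strand, and Paox (ENSMUSG00000025464) chr7:140115799-140137224 on the plus strand.

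Amd1 and Amd2 are so alike that a read from most parts of one matches the other. The coding sequences of Amd1-201 and Amd2-201 in the GENCODE M21 annotation are both 1002 bases long and differ at 1 base, and the whole transcripts of 3204 and 3218 bases were identical in 99.1% of the aligned positions. The 60 coding bases around that difference, numbers 766 to 825 counted from the first base of the start codon, are shown with the differing base in capitals.
Amd1: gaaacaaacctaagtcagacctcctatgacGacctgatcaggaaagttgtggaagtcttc
Amd2: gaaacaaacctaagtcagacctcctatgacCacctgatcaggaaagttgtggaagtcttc
Of the 3105 windows of 100 bases in Amd1-201, 73.2% occurred unchanged in Amd2-201. The value of Amd2 rests on 7 to 171 reads per sample and is uncertain for this reason, while the Amd2 share of the summed FPKM of both copies was 0.569% to 4.0% in the 27 samples, so Amd1 and the sum of both copies had nearly the same values.

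The promoter windows of the genes that changed most are printed next, from 250 bases before to 50 bases after the annotated start, as RefSeq gives them for GRCm38.p6. Of the 9 genes, 7 matched a window (9 windows in all), and Srm and Azin1 did not. Capitals mark GGGCGG on either strand, the letters known as the GC box, with overlapping matches counted separately. Amd1 and Smox are shown because they were the most abundant members in uninjured muscle and had the largest differences at day 3, Amd2 because it is the copy of Amd1, and Sat1 because it differed in the opposite direction.
Amd1, chr10:40302139-40302438, minus strand: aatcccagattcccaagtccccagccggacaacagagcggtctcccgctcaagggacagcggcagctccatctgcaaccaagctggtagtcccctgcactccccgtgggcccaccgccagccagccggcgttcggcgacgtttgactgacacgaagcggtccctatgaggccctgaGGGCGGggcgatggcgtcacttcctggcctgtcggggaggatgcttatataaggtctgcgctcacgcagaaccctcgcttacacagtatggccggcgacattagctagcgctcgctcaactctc
Amd2, chr10:35711842-35712141, minus strand: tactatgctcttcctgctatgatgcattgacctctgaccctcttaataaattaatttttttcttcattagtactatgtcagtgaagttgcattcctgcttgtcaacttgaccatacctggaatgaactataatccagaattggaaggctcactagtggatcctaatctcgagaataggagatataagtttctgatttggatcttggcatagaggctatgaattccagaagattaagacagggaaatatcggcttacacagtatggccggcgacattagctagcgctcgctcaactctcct
Smox, chr2:131491612-131491911, plus strand: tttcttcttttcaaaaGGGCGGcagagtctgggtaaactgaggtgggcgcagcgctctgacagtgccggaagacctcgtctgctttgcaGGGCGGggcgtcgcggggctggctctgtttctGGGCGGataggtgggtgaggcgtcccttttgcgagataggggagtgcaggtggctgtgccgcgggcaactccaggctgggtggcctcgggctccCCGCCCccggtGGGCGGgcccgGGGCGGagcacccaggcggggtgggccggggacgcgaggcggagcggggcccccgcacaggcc
Sat1, chrX:155216400-155216699, minus strand: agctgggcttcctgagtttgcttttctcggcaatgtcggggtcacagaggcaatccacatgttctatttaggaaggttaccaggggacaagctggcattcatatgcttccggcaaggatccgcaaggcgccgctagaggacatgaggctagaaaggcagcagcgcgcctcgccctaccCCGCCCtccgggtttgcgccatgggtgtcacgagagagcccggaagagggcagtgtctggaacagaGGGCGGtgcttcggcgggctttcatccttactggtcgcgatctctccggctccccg
GGGCGG was present in 7 of the 9 windows, against 35.7% of all 32851 promoter windows of this length. The windows of Paox overlap and are not independent. Counted by gene, 6 of the 7 genes with a window held it. The Smox window held it 6 times with a GC content of 71%, the Amd1 window once (GC 63%), the Sat1 window 2 times (GC 60.3%) and the Amd2 window not at all (GC 40.7%). The E-box CACGTG occurred in 1 of the 2 Sms windows and in 7.15% of all windows. The E-box CAGCTG, present in 16.3% of all windows, was in none of the 9. The same held for the exact letters TATAAA of the TATA box (13.6% of all windows) and for the cyclic AMP response element TGACGTCA (1.79%). Other forms of these letters, such as the tatataa in the Amd1 window, were not searched. These are matches of letters, and they say nothing about which factors were bound.

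Each library held 14376395 to 24436763 reads assigned to genes (median 17398586), and no pair of libraries was identical. The libraries did not all resemble their own group: 9 of the 27 lay nearer the mean profile of another group, namely day 3 replicate 5, day 7 replicates 3, 5 and 6, day 14 replicates 1, 3 and 6, and day 21 replicates 3 and 5. Of these, day 7 replicate 3 lay nearest the uninjured group and day 7 replicate 5 nearest the day 3 group, and results that rest on them are given with and without them. The muscle label was borne out by 8 muscle fibre genes such as Acta1 and Ckm, whose summed FPKM was 93940 to 112200 in uninjured muscle. In bulk tissue, fewer cells of a type and less RNA per cell cannot be told apart.

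The levels below are FPKM, fragments scaled to the length of the gene and to a denominator for each library. That denominator was not the total of assigned reads, and its source is not given. The values are corrected for gene length and so can be compared between genes. In uninjured muscle Amd1 and Smox were the most abundant of the 9 genes. Together they held 77.2% ± 4.9 of the summed FPKM of the 9 genes (SD, n = 5), while at day 3 they held 23.98% ± 10.2 (SD, n = 5). The order of mean FPKM in uninjured muscle was Amd1, Smox, Odc1, Sms, Sat1, Srm, Azin1, Amd2 and Paox, and only the neighbours Amd1 and Smox, and Amd2 and Paox, had overlapping ranges. At day 3 the order was Odc1, Sat1, Srm, Amd1, Smox, Sms, Azin1, Paox and Amd2, and each of the first 6 overlapped with the next in order except Sms with Azin1. By day 21 the order had Smox, Amd1 and Odc1 at the head again, with overlapping ranges, and the share of Amd1 and Smox was 52.4% ± 9.0 (SD, n = 5).

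**Figure D1:**
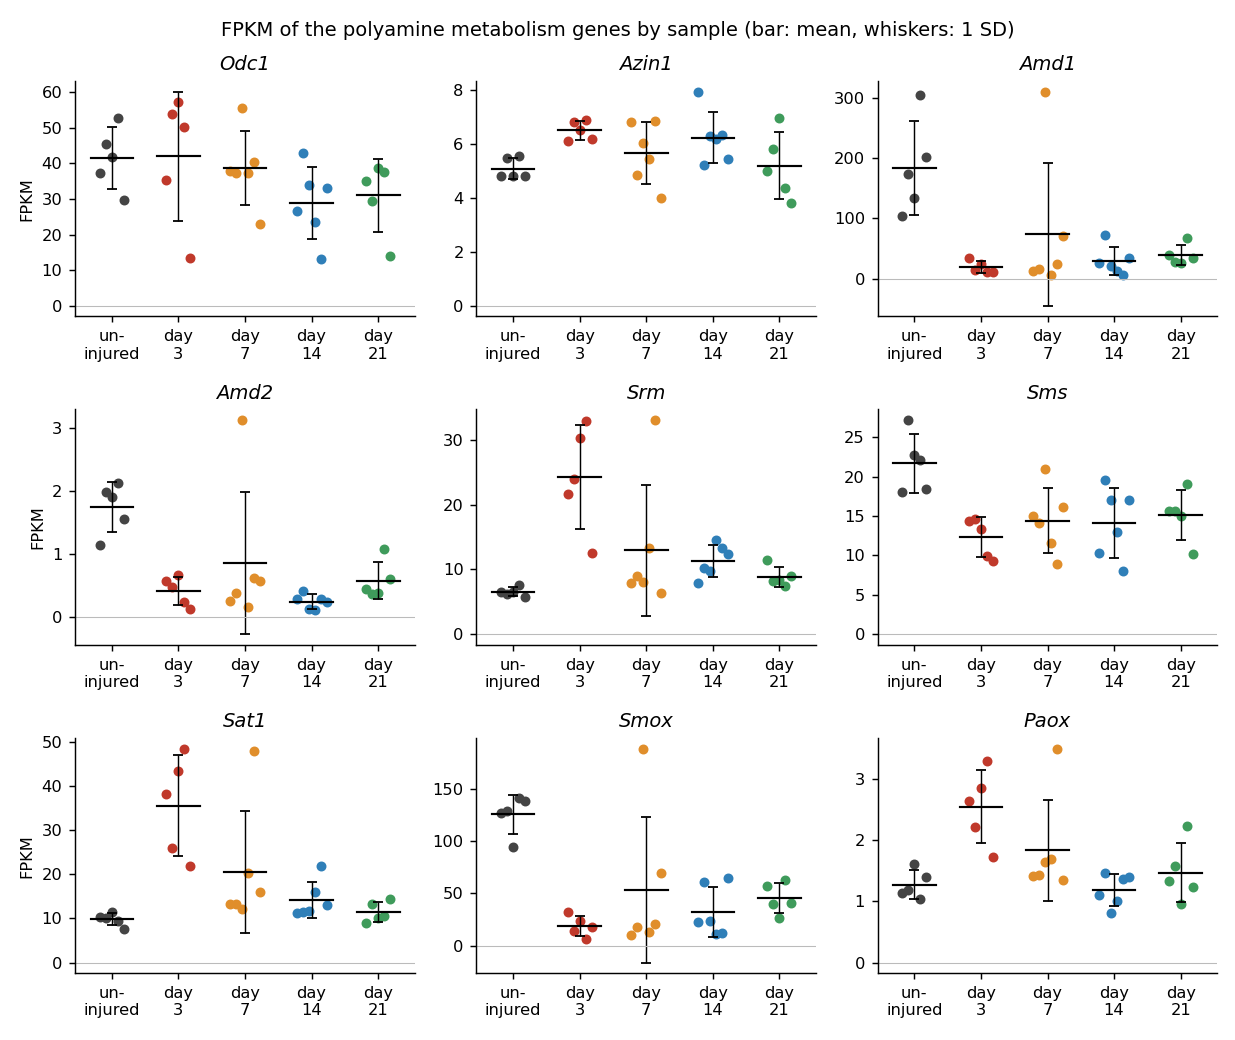
FPKM of each of the 9 genes (vertical axes, each from 0 or just below) in the 27 samples by group, 1 point per sample, with the mean as a bar and 1 SD as whiskers. Amd1 and Smox are lower than in uninjured muscle in 21 of 22 injured samples, with day 7 replicate 3 as the exception (309.9 and 188.3 FPKM), while Srm and Sat1 are highest at day 3 and in day 7 replicate 5.

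Odc1 and its regulator Azin1 act at the start of the pathway. Odc1, ornithine decarboxylase, is the entry step of the pathway. Its FPKM in uninjured muscle was 37.4, 45.4, 41.9, 52.8 and 29.7, and at day 3 it was 35.4, 54.0, 57.4, 50.2 and 13.3. The day 3 values thus lay on both sides of the uninjured range, with replicate 5 far below the others. At day 7 the lowest, median and highest Odc1 values were 23.1, 37.7 and 55.6 FPKM, at day 14 they were 13.2, 29.9 and 42.9, and at day 21 the 5 values were 35.1, 29.6, 38.7, 37.7 and 14.0. Over all injured samples 7 of 22 lay below and 3 above every uninjured sample.

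On the scale of log2(FPKM + 1), the Odc1 difference from uninjured muscle was −0.11 ± 0.34, −0.12 ± 0.32, −0.56 ± 0.32 and −0.46 ± 0.34 (SE of the fit) on days 3, 7, 14 and 21. The day 3 sign turned to 0.25 without day 3 replicate 5, and the day 7 sign to 0.02 without day 7 replicate 6. It was also positive at both days under quantile normalization and under a rescaling of every sample to a common FPKM sum, so no direction is given for these days. At days 14 and 21 the difference was negative in all fits run, with ranges of −0.75 to −0.10 and −0.57 to −0.21.

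Azin1, the antizyme inhibitor that frees ornithine decarboxylase from its antizyme, had 4.80, 5.46, 4.81, 5.53 and 4.82 FPKM in uninjured muscle and 6.11, 6.79, 6.51, 6.88 and 6.20 at day 3. The groups did not overlap, but the difference was small, at 0.30 ± 0.13 on the log2(FPKM + 1) scale. At days 7, 14 and 21 it was 0.11 ± 0.13, 0.24 ± 0.13 and 0.01 ± 0.13, and the ranges of all 3 groups overlapped with that of uninjured muscle. Azin1 overlaps the small antisense gene Gm49077 and the microRNA gene Mir6951, both with a median FPKM below 0.1.

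Amd1, S-adenosylmethionine decarboxylase, supplies the aminopropyl donor for both synthases, and it was the most abundant of the 9 genes in uninjured muscle. There its FPKM was 103.9, 174.4, 133.6, 305.2 and 202.5. At day 3 it was 34.7, 14.2, 24.6, 11.2 and 11.6, so that every day 3 sample lay far below the lowest uninjured one. At day 7 the lowest, median and highest values were 6.26, 20.0 and 309.9. The highest was replicate 3, above every uninjured sample, and the others lay at or under 71.0 FPKM. On day 14 the lowest, median and highest were 6.97, 23.2 and 72.6, and at day 21 the values were 39.7, 27.3, 25.7, 67.0 and 34.3. No sample at days 3, 14 and 21 reached the uninjured range.

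The log2(FPKM + 1) difference of Amd1 from uninjured muscle was −3.23 ± 0.68, −2.45 ± 0.65, −2.87 ± 0.65 and −2.21 ± 0.68 on days 3, 7, 14 and 21. Without day 7 replicate 3 the day 7 difference was −3.11. Amd2 had 1.14 to 2.12 FPKM in uninjured muscle and 0.131 to 0.671 at day 3, with day 7 replicate 3 again the highest sample at 3.12, and its differences were −0.95, −0.71, −1.13 and −0.80 at the 4 days. At levels this near to 1 FPKM the pseudocount sets these sizes, and voom on recovered reads gave −2.22, −1.82, −2.89 and −1.67.

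Smox, spermine oxidase, moved with Amd1. Its FPKM in uninjured muscle was 126.7, 128.3, 94.4, 141.1 and 138.2, and at day 3 it was 32.5, 14.4, 23.3, 6.41 and 18.2. At day 7 the lowest, median and highest values were 10.3, 19.3 and 188.3, with replicate 3 highest and replicate 6 next at 69.9. At day 14 they were 11.6, 23.1 and 64.2, and at day 21 the values were 57.5, 39.7, 26.3, 62.7 and 41.1. As for Amd1, every injured sample but day 7 replicate 3 lay below every uninjured sample.

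The log2(FPKM + 1) difference of Smox from uninjured muscle was −2.82 ± 0.58, −2.02 ± 0.56, −2.22 ± 0.56 and −1.496 ± 0.58 on days 3, 7, 14 and 21. Without day 7 replicate 3 the day 7 difference was −2.55. Across the 27 samples, the log2(FPKM + 1) values of Amd1 and Smox had a Pearson correlation of 0.95, and of 0.91 after each group's mean was subtracted. This is a description over samples that share their groups and their libraries. The FPKM ratio of Amd1 to Smox had a median of 1.42 in uninjured muscle and of 0.835 at day 21, with overlapping ranges of 0.820 to 2.16 and 0.687 to 1.07.

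The synthases differed in direction. Srm, which makes spermidine, had 6.57, 6.29, 6.50, 7.67 and 5.81 FPKM in uninjured muscle and 21.6, 23.9, 30.4, 32.9 and 12.6 at day 3. All day 3 samples were above all uninjured samples, with replicate 5 lowest. At day 7 the lowest, median and highest values were 6.42, 8.56 and 33.1, the highest in replicate 5, at day 14 they were 7.96, 11.3 and 14.6, and at day 21 the values were 11.5, 8.22, 8.32, 7.41 and 9.02. In all, 20 of 22 injured samples exceeded every uninjured sample.

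The log2(FPKM + 1) difference of Srm from uninjured muscle was 1.68 ± 0.29, 0.67 ± 0.27, 0.69 ± 0.27 and 0.38 ± 0.29 on days 3, 7, 14 and 21. Without day 7 replicate 5 the day 7 difference was 0.36. Sms, which makes spermine from spermidine, was lower instead. It had 18.01, 27.2, 22.8, 22.1 and 18.5 FPKM in uninjured muscle and 14.4, 14.6, 13.3, 9.88 and 9.31 at day 3, again without overlap. At days 7, 14 and 21 its ranges were 8.87 to 21.0, 8.07 to 19.6 and 10.2 to 19.1 FPKM, which overlapped with the uninjured range. The Sms differences on the log2(FPKM + 1) scale were −0.78, −0.59, −0.63 and −0.51 at the 4 days, and under a common FPKM sum they were −0.0014 and 0.10 at days 3 and 7.

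Of the catabolic genes, Sat1 and Paox were higher at day 3. Sat1 is the spermidine and spermine acetyltransferase. The FPKM of Sat1 in uninjured muscle was 10.4, 10.2, 11.5, 9.52 and 7.73, and at day 3 it was 38.1, 25.9, 43.3, 48.4 and 21.8. At day 7 the lowest, median and highest values were 12.2, 14.7 and 47.9, the highest in replicate 5. All samples of both days lay above the uninjured range. At day 14 the lowest, median and highest were 11.2, 12.4 and 21.9, and at day 21 the values were 8.97, 13.3, 10.2, 10.6 and 14.3, both overlapping with uninjured muscle.

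The log2(FPKM + 1) difference of Sat1 was 1.70 ± 0.27, 0.82 ± 0.26, 0.45 ± 0.26 and 0.19 ± 0.27 on days 3, 7, 14 and 21, and the day 7 value was 0.55 without replicate 5. The FPKM ratio of Sat1 to Smox had a range of 0.0559 to 0.122 in uninjured muscle and of 1.17 to 7.55 at day 3, and these did not overlap. At day 21 it was 0.156 to 0.386. Paox, the peroxisomal oxidase of acetylated polyamines, was the least abundant member in uninjured muscle, with 1.13, 1.18, 1.62, 1.04 and 1.39 FPKM, and it had 2.63, 2.22, 2.85, 3.28 and 1.72 at day 3. The groups did not overlap. Its log2(FPKM + 1) differences were 0.63 ± 0.16, 0.28 ± 0.15, −0.06 ± 0.15 and 0.10 ± 0.16 at the 4 days. Its gene overlaps Echs1 on the opposite strand, and the libraries did not record strand.

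In a limma fit of log2(FPKM + 1) over 14630 genes with at least 0.5 FPKM in at least 5 samples, all 9 genes were among those tested. A gene was called at an adjusted p under 0.05 (Benjamini-Hochberg over all genes in a comparison). At day 3, 7 of 9 were called against uninjured muscle, 3 higher and 4 lower, and the shares over all genes were 43.2%, 23.4% and 19.8%. Day 7 had 5 called members, against 29.4% of all genes. Day 14 had 4, all lower, against 20.3% of all genes (9.02% higher and 11.3% lower). On day 21 Amd2 alone was called, as lower, against 3.43% of all genes (1.74% higher and 1.69% lower). Amd2 was called at that day in 21 of 40 fits, alternatives included, and not under voom or a common FPKM sum. These counts follow from the choice of the genes and nothing is read from them.

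The scaling of the samples bears on the size of these differences. Rescaled to a common FPKM sum, the median log2(FPKM + 1) difference of all genes from uninjured muscle was 0.51, 0.48, 0.29 and 0.12 on days 3, 7, 14 and 21, whereas it was 0.01 to 0.03 as deposited. Relative to that median, the rescaled day 3 differences were −2.93 for Amd1, −2.53 for Smox, −0.51 for Sms, 1.92 for Srm, 1.97 for Sat1, 0.66 for Paox, 0.50 for Azin1 and 0.19 for Odc1. The signs were those of the deposited values for all but Odc1.

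Changes after the injury were tested among the injured groups, which share their samples with the comparisons above. The 9 genes were chosen with those comparisons known, so the choice bears on these tests too. Between day 3 and day 21, Sat1, Srm and Paox fell. The log2(FPKM + 1) difference, day 21 minus day 3, was −1.51 ± 0.27 for Sat1 (limma adjusted p = 2.95e-04), −1.30 ± 0.29 for Srm (adjusted p = 0.00168) and −0.53 ± 0.16 for Paox (adjusted p = 0.0178). Every day 21 sample lay below every day 3 sample for Sat1 and Srm, while for Paox the highest day 21 sample (2.22 FPKM) lay above the lowest at day 3 (1.72). Over all alternatives the adjusted p reached at most 0.00185 for Sat1, 0.00893 for Srm and 0.0666 for Paox, which was lost without day 3 replicate 4 (adjusted p = 0.0666) or without day 21 replicate 3 (adjusted p = 0.0541). Of all genes 25.5% were called in this comparison, 9.23% higher and 16.2% lower, and of the 9 genes 3, all lower.

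Amd1 and Smox did not pass this test. The day 21 minus day 3 difference was 1.32 ± 0.58 for Smox (limma adjusted p = 0.0969) and 1.02 ± 0.68 for Amd1 (adjusted p = 0.280), with Smox ranges of 6.41 to 32.5 FPKM at day 3 and 26.3 to 62.7 at day 21 that overlapped. Smox passed at an adjusted p of 0.0391 without day 7 replicate 3, which enters the shared estimate of the spread, and both passed with only these groups in the fit (adjusted p = 0.0201 and 0.0417). The other differences were −0.35 for Odc1, 0.27 for Sms, 0.15 for Amd2 and −0.30 for Azin1 (adjusted p = 0.471, 0.377, 0.653 and 0.102), and Azin1 was called as lower without day 21 replicate 3 (adjusted p = 0.0336), without the 9 libraries nearer another group (adjusted p = 0.0464) and under a common FPKM sum (adjusted p = 0.0227). The direction of Sms and Amd2 turned under a common FPKM sum, at −0.31 and −0.05.

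Between neighbouring days, none of the 9 genes was called. From day 3 to day 7, limma called 0 of 9 (3 with an unadjusted p under 0.05) and voom, limma on recovered reads, also 0, with 0.0478% of all genes called. The differences were −1.01 ± 0.27 for Srm (adjusted p = 0.0768), −0.88 ± 0.26 for Sat1 (adjusted p = 0.0933) and −0.35 ± 0.15 for Paox (adjusted p = 0.272). This count rested on single libraries. Without day 7 replicate 5, all 3 genes were called as lower at day 7, with −1.31 for Srm (adjusted p = 9e-05), −1.15 for Sat1 (adjusted p = 3.14e-04) and −0.49 for Paox (adjusted p = 0.0124). Without day 3 replicate 5, Srm and Sat1 were called (adjusted p = 0.0149 and 0.0271). Without all 9 libraries nearer another group, the same 3 genes were called. Those libraries were picked by their likeness to another group, so leaving them out tends to widen differences between groups. These calls are no added support.

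From day 7 to day 14, limma and voom both called 0 of 9 (2 with an unadjusted p under 0.05 in limma), with 0.335% of all genes called. From day 14 to day 21 both called 0 of 9, with no unadjusted p under 0.05, and 0.0% of all 14630 genes, of which 909 had an unadjusted p under 0.05. The Amd1 difference from day 7 to day 14 was −0.42 ± 0.62, and it was 0.24 without day 7 replicate 3.

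**Figure D2:**
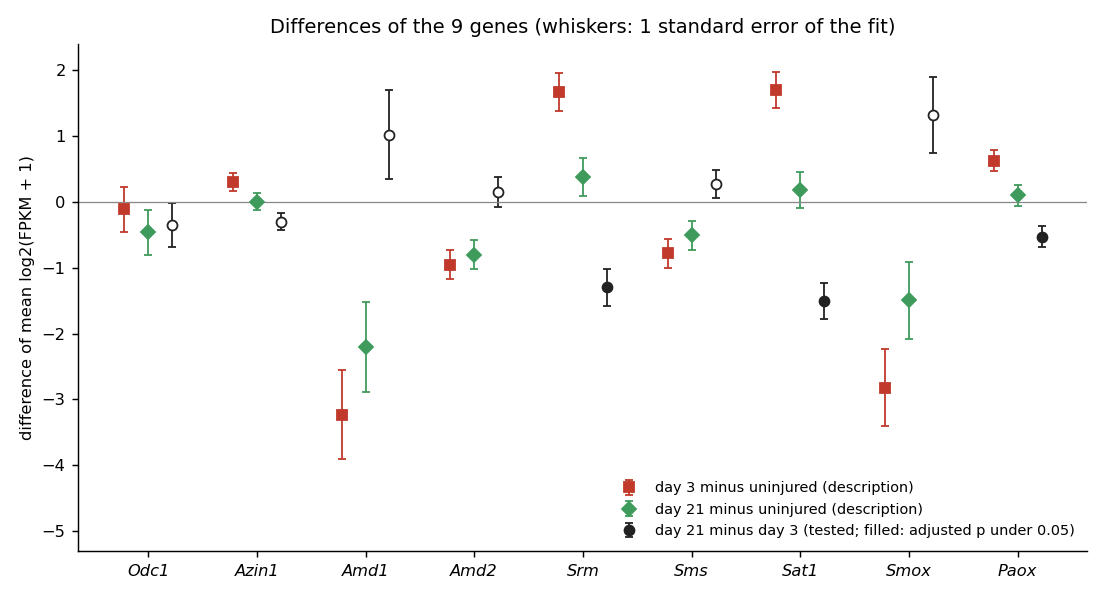
Differences of mean log2(FPKM + 1) of the 9 genes (vertical axis) with 1 standard error of the fit as whiskers. Squares are day 3 minus uninjured and diamonds day 21 minus uninjured, both as a description. Circles are day 21 minus day 3, filled where limma's adjusted p was under 0.05, which holds for Srm (−1.30), Sat1 (−1.51) and Paox (−0.53).

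Some of the genes followed each other across the samples. Besides Amd1 and Smox, the sample values of Srm and Sat1 followed each other, with a Pearson correlation of 0.91 over the 27 samples and of 0.82 after group means were subtracted. The same values were 0.82 and 0.69 for Sat1 with Paox and 0.79 and 0.63 for Amd1 with Sms. Amd1 and Sat1 had −0.53 and −0.29. Odc1 and Azin1 followed no other member closely. Odc1 had its highest value with Sms, at 0.55 and 0.63, and Azin1 with Srm, at 0.50 and 0.25. Without day 7 replicate 3 the correlation of Amd1 with Smox over all samples was 0.94.

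**Figure D3:**
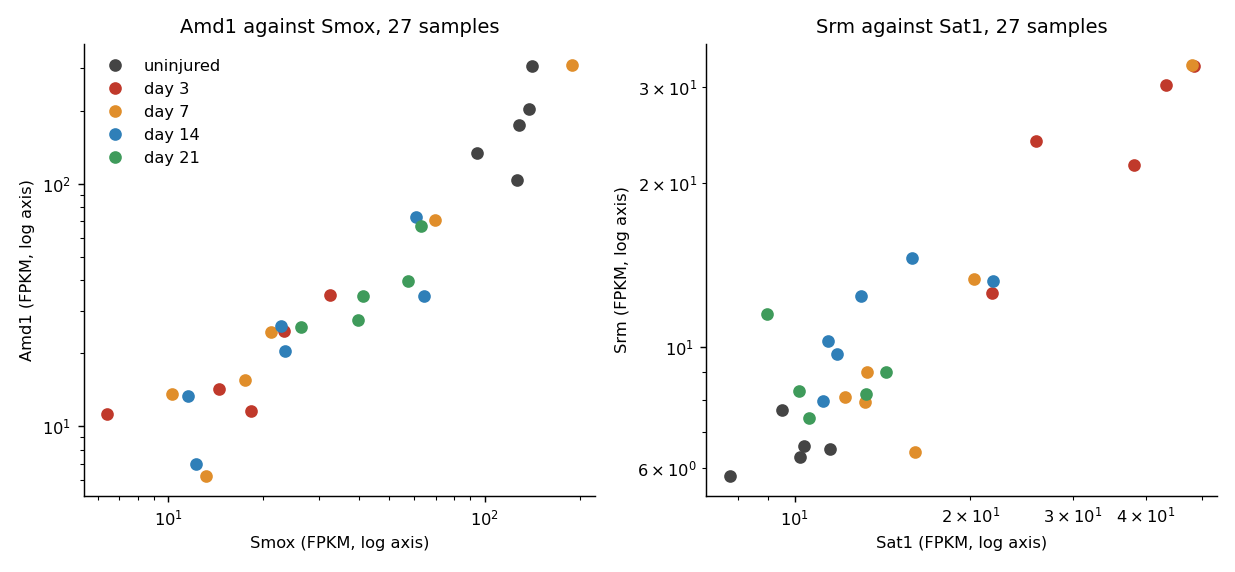
FPKM of Amd1 against Smox (left) and of Srm against Sat1 (right) on log axes, 1 point per sample, coloured by group. In the left panel day 7 replicate 3 lies with the uninjured samples (309.9 FPKM of Amd1 and 188.3 of Smox), and in the right panel day 7 replicate 5 lies with the highest day 3 samples (33.1 FPKM of Srm and 47.9 of Sat1).

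The genes whose values were most like each member's, by Pearson correlation of log2(FPKM + 1) over the 27 samples, were taken from all 14630 tested genes. For Amd1 they were Smox (0.95), Ccdc6 (0.94) and Gpd2 (0.94), the last being the mitochondrial glycerol-3-phosphate dehydrogenase, and for Smox they were Camk2a (0.96), Tigar (0.95) and Amd1 (0.95). Each gene of this pair was thus among the 3 nearest of the other. For Sat1 they were Btk (0.97), a kinase of B cells and myeloid cells, Arpc5 (0.97) and Ucp2 (0.97), and for Srm they were Cfl1 (0.96), Hcls1 (0.96) and Arpc3 (0.95), of which Arpc5 and Arpc3 are subunits of the actin-nucleating Arp2/3 complex and Hcls1 is a protein of blood cells. For Paox, Cenpe (0.91), a mitotic motor, and Snx20 (0.91) came first.

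For Odc1 the nearest genes were Cct5 (0.89), Etf1 (0.89) and Morf4l1 (0.87), of which Cct5 is a chaperonin subunit and Etf1 the factor that ends translation. For Sms, Rab2a (0.92) and Gpbp1 (0.92) came first. Azin1 had the lowest values, with Lims1 (0.86), Sept7 (0.76, listed in the table under a calendar date) and Setd2 (0.76). With group means subtracted, the values of these 8 members with the nearest genes named here lay between 0.77 and 0.93.

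Markers of cell types moved with several of these genes. The summed FPKM of the 8 muscle fibre genes ranged over 23080 to 69130, 29020 to 110800, 45410 to 112000 and 81720 to 116400 on days 3, 7, 14 and 21, and at day 3 all 8 were called lower than in uninjured muscle while at day 21 limma called 0 of 8 (0 with an unadjusted p under 0.05). The correlation of this sum with Smox over the 27 samples was 0.80 and with Amd1 0.66. Both genes had negative correlations with all the other marker sums described below. The strongest were with the satellite cell and myoblast markers, at −0.81 for Smox and −0.77 for Amd1. Group means were not subtracted for the marker correlations here and below. In 5 of the 22 injured samples the fibre sum was not below the uninjured range, and in 4 of these 5 both Amd1 and Smox were below every uninjured sample. Day 21 replicate 4, with the highest fibre sum at 116400, had 67.0 FPKM of Amd1 and 62.7 of Smox, and day 14 replicate 6, at 112000, had 34.4 and 64.2. The exception was day 7 replicate 3, at 110800. At day 21 the ranges of the fibre sums overlapped with uninjured muscle and those of Amd1 and Smox did not. By the limma threshold, neither the 8 fibre genes nor Amd1 and Smox were called at day 21. The part of the fibre content in the Amd1 and Smox values was not tested.

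The summed FPKM of 6 macrophage genes, Cd68, Adgre1, Csf1r, Itgam, Lyz2 and Cd14, was 16.2 to 24.7 in uninjured muscle and ranged over 311.9 to 2142, 45.6 to 2005, 43.4 to 102.1 and 31.0 to 56.8 on days 3, 7, 14 and 21. None of the 6 had a summed level of 0 in any group. The correlation of this sum with Sat1 was 0.91, with Srm 0.89 and with Paox 0.79. Day 7 replicate 5, highest for Sat1, Srm and Paox in its group, was also highest for this sum (2005), and day 3 replicate 5, lowest for all 3 genes, was lowest (311.9). The sum of 4 genes of dividing cells, Mki67, Top2a, Ccnb1 and Cdk1, was 0.192 to 0.627 in uninjured muscle and 8.20 to 22.2 at day 3, and it had a correlation of 0.92 with Srm and of 0.92 with Sat1. The sums of neutrophil, fibroblast and satellite cell markers were also higher at day 3 (19.1 to 37.6, 425.5 to 862.9 and 74.6 to 293.7 against 0.456 to 3.93, 46.1 to 118 and 16.9 to 25.7), and those of endothelial markers overlapped (37.3 to 83.6 against 55.9 to 67.2). The part of the cell types in the values of the 9 genes was not tested.

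**Figure D4:**
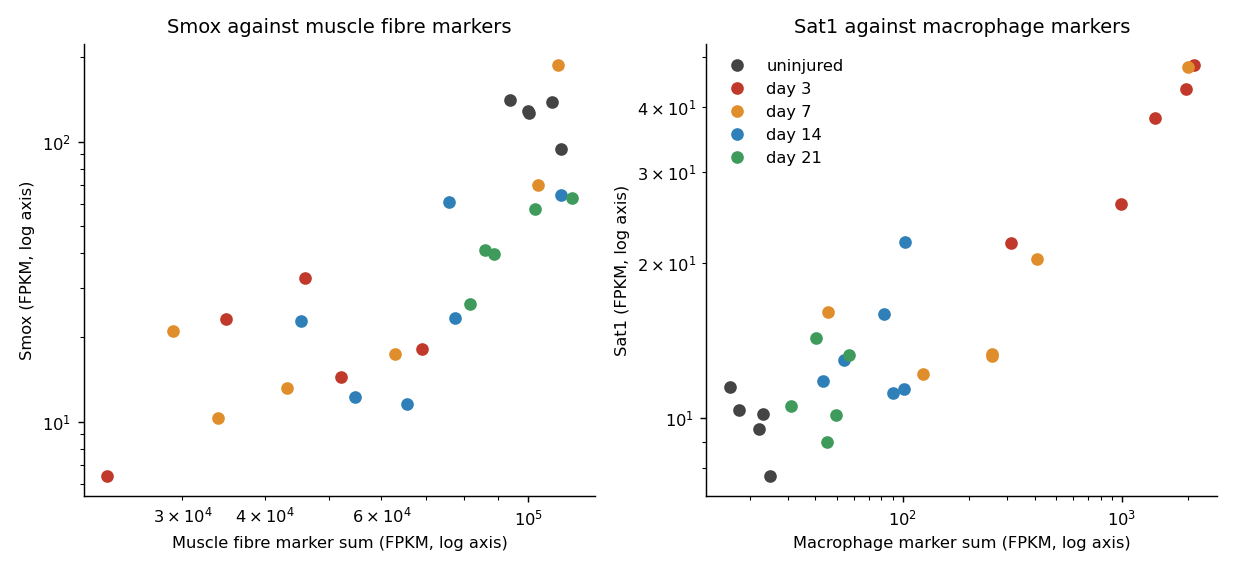
FPKM of Smox against the summed FPKM of 8 muscle fibre genes (left) and of Sat1 against that of 6 macrophage genes (right) on log axes, 1 point per sample, coloured by group. At fibre sums of 81720 and above, the day 21 samples have 26.3 to 62.7 FPKM of Smox and the uninjured samples 94.4 to 141.1. The 5 highest Sat1 values (25.9 to 48.4 FPKM) are in the samples with macrophage sums of 994 to 2142.

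The steps around the 9 genes were read from 30 other genes of the pathway, of which 24 passed the filter on low values. Arg2, Slc7a1, Oaz3, Mat1a, Aoc1 and Atp13a4 did not. Against uninjured muscle, 14 of 24 were called at day 3 (6 higher, 8 lower), 9 each on days 7 and 14 (both 4 higher, 5 lower) and 1 on day 21 (higher), beside the shares of all genes given above. The median log2(FPKM + 1) difference of the 24 was −0.06, −0.02, −0.19 and −0.07 on days 3, 7, 14 and 21, against 0.01, 0.03, 0.02 and 0.01 over all genes. Under a common FPKM sum, with the shift of the median given above, 10, 7, 4 and 0 were called on days 3, 7, 14 and 21, all higher. Without day 3 replicate 4 the day 3 count was 9 (4 higher, 5 lower), and without day 7 replicate 3 the day 21 count was 4 (3 higher, 1 lower).

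Among the genes that supply arginine and ornithine, 5 of the 6 tested were called at day 3, when 43.2% of all genes were. Arg1, arginase, which makes ornithine, passed the filter on low values only through samples of days 3 and 7, where it was high. Its differences are therefore given as a description, although it is among the genes counted. At day 3 it was higher by 1.68 ± 0.49 on the log2(FPKM + 1) scale. Its FPKM was 0.0 to 0.0383 in uninjured muscle and 0.527 to 5.05 at day 3. It was listed at 0 in every sample at day 21. Ass1 and Asl, which rebuild arginine from citrulline, also rose. Ass1 was higher at every time point, by 1.63 ± 0.28 at day 3 (limma adjusted p = 5.82e-05) and by 0.99 and 1.39 on days 7 and 14. At day 21 Ass1 was higher by 1.45 ± 0.28 (adjusted p = 0.00462), and it was the only one of the 24 called at day 21. The day 21 call of Ass1 was made in 39 of 40 fits, which include a fit with no filter, and was lost under a common FPKM sum (adjusted p = 0.0821). The FPKM of Ass1 was 0.247 to 1.18 in uninjured muscle (median 0.42), 0.705 or more in every injured sample and 1.002 to 5.69 at day 21. It thus passed the filter on low values through injured samples, where it was high, and its p-values are to be read with that limit. Asl rose by 0.92 at day 3. Oat, ornithine aminotransferase, which draws on ornithine, fell by 0.87 ± 0.22 (adjusted p = 0.00221), from 62.9 to 79.1 FPKM to 34.0 to 44.8. The cationic amino acid transporter gene Slc7a2 fell by 0.62. Under a common FPKM sum neither Oat nor Slc7a2 was called as lower. Agmat, agmatinase, was called at day 14 alone. Like Arg1 it passed the filter on low values only through injured samples, so its difference of 0.68 is given as a description. Its FPKM was 0.0 to 0.182 in uninjured muscle and 0.192 to 1.47 at day 14.

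The antizymes bind ornithine decarboxylase and send it for degradation. Oaz1, the most abundant of them, had 150.3 to 234.3 FPKM in uninjured muscle and 121.9 to 193.1 at day 3, and was not called at any time point. Oaz2 fell by 0.57 at day 3 (adjusted p = 0.0133), which turned to a difference of 0.25 in the other direction under a common FPKM sum and was not called there. Azin2, a second antizyme inhibitor, rose by 0.41 ± 0.13 at day 3 (adjusted p = 0.0154) and by 0.48 ± 0.13 at day 7 (adjusted p = 0.00694). It fell by 0.55 ± 0.12 from day 7 to day 14 (adjusted p = 0.0475), the only one of the 24 called between neighbouring days. That call was made in 14 of 40 fits and was lost under a common FPKM sum (adjusted p = 0.103).

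All 4 called genes of S-adenosylmethionine supply and methylthioadenosine salvage at day 3 were lower, of 7 tested, where 43.2% of all genes were called and 19.8% were called as lower. Mat2b, the regulatory subunit of methionine adenosyltransferase, fell by 0.88 ± 0.15 (adjusted p = 6.38e-05), from 14.8 to 18.1 FPKM to 6.80 to 10.4, and it was called as lower at days 7 and 14 too. Adi1 and Apip, enzymes of the methionine salvage that recycles the by-product of both synthases, fell by 1.06 ± 0.24 (adjusted p = 0.00105) and 0.82 ± 0.20 (adjusted p = 0.00178), and Mat2a, the catalytic subunit, by 0.52 ± 0.17 (adjusted p = 0.0164). Under a common FPKM sum the sign turned for Mat2a at day 3 (from −0.52 to 0.27) and for Mat2b at day 7 (from −0.61 to 0.07), and neither was called. No gene of the 24 was called as lower under that scaling at any time point. The calls of Mat2b, Adi1 and Apip as lower were therefore lost there too.

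Of the genes of hypusine formation, the use of spermidine to modify the translation factor Eif5a, Dhps was called as lower on days 3, 7 and 14 (−0.42, −0.44 and −0.54, with adjusted p = 0.00938 for the last). Under a common FPKM sum the Dhps difference turned to 0.34 at day 3, and Dhps was not called as lower at any of these days. Eif5a itself had 174.8 to 200.4 FPKM in uninjured muscle and 163.1 to 300.2 at day 3 and was not called. The polyamine transporters Atp13a2 and Atp13a3, ion pump-like ATPases of lysosomes and endosomes, rose. Atp13a2 was called at day 3 alone (0.86 ± 0.28, adjusted p = 0.0147). Atp13a3 rose by 1.16 ± 0.45, 1.68 ± 0.43 and 2.01 ± 0.43 on days 3, 7 and 14 (adjusted p = 0.0413, 0.00580 and 0.00284), the last from 0.710 to 1.62 FPKM to 4.23 to 11.3. On this scale that was the largest change of the 24, but the pseudocount of 1 compresses the change of genes near 0 FPKM such as Arg1. At day 21 the values of Atp13a3 were 0.721 to 8.86 FPKM, with 4 of 5 samples above every uninjured one, and the difference of 1.57 ± 0.45 was not called (adjusted p = 0.0519).

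**Figure D5:**
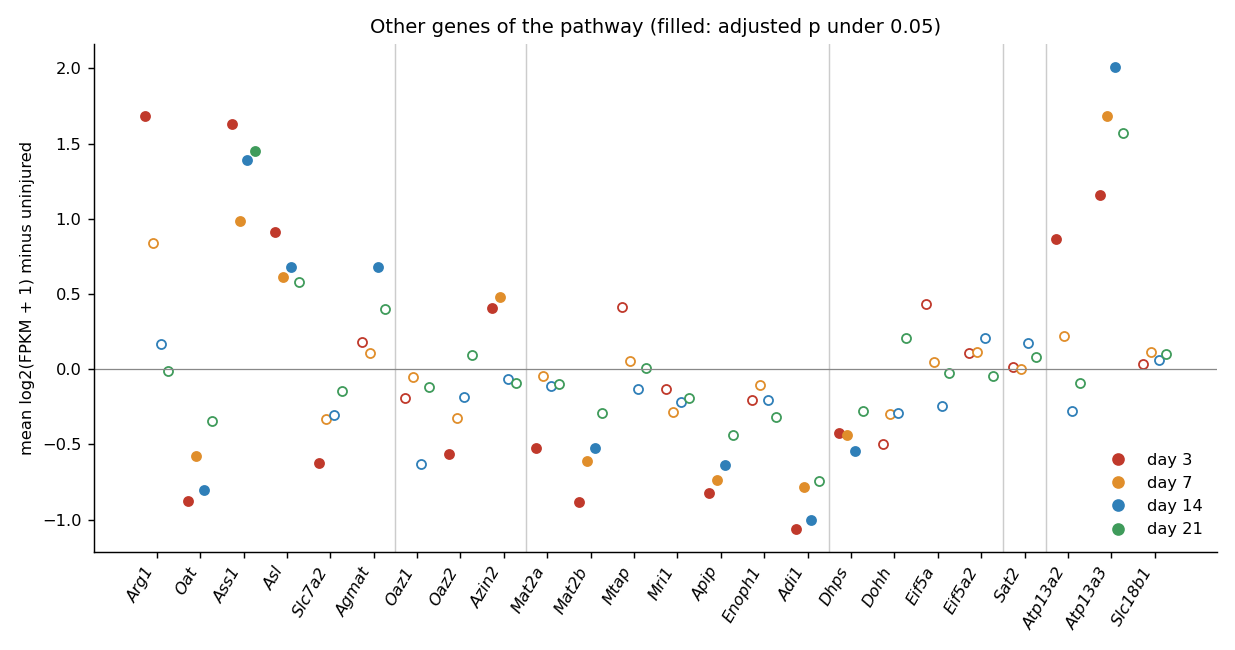
Mean log2(FPKM + 1) minus that of uninjured muscle (vertical axis) for the 24 other genes of the pathway that were tested, by time point, filled where limma's adjusted p was under 0.05. Vertical lines part the groups of genes. Ass1 is filled at all 4 time points (0.99 to 1.63), and Atp13a3 is highest at day 14 (2.01).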

How the data were processed

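Poly-A RNA of 27 tibialis anterior samples was sequenced from libraries that did not record strand. According to the study's methods and the submitters' processing notes, the authors aligned the reads with HISAT2 (2.0.5), counted them per gene with featureCounts (1.5.0-p3) and deposited FPKM values for every sample in 1 table. Its other numeric column holds the gene length in bases. The gene coordinates matched GENCODE M21 (GRCm38) for 98.3% of the 54409 genes found there. How reads that fit several genes were counted is not given in the sources used here.

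The deposited FPKM times gene length gave whole reads for all values (tolerance 0.05), 14376395 to 24436763 per sample. The lowest reads in a sample were 7 for Amd2, 63 for Paox and 122 for Srm, so counting error is a part of their spread. The other members had at least 267 reads in every sample. The FPKM denominators were not the read totals: their ratio had a group mean of 0.782 in uninjured muscle and 1.247 at day 3, and their source is not given. For comparison, FPKM was also rescaled to a common sum.

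Groups and replicate numbers were taken from the sample titles. A gene was tested if 5 or more samples had 0.5 FPKM or more (14630 genes), with limma (3.58.1, R 4.3.3) on log2(FPKM + 1), with all groups in 1 fit, variance moderated along the mean (trend) and Benjamini-Hochberg adjustment within each comparison, two-sided. The fit was tested on simulated data. The alternatives were a pseudocount of 0.1, no filter on low values and a minimum of 1 FPKM, 3 other scalings, limma without the trend, voom on recovered reads, a block for the replicate number or letter, only the groups compared, and leaving out each sample. A fit without the 9 libraries that lay nearer another group was chosen after seeing the data. Leaving out such libraries tends to widen differences between groups, so the calls of that fit are given as a description. The members and lists were chosen with earlier results of these data known. All 9 members were described, the genes of the pathway list that were named had passed the test or served as a reference, and for each member but Amd2 the 3 genes with the highest correlation were named, except 1 each for Sms and Paox that is not reported here. Reads of Amd1 and Amd2, which are near-identical, cannot be assigned with certainty. Promoter windows came from RefSeq (GRCm38.p6) and transcripts from GENCODE M21.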

Additional observations from a re-analysis of the deposited data

Results flagged for a closer look

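In 45 sets of samples (9 genes in 5 groups), a sample stood far from the others of its group in 5, where chance alone gives about 1 in 20. Day 7 replicate 3 had 3.12 FPKM of Amd2 (exactly 3.119), against 0.165 to 0.625 in the other day 7 samples, and it was also the highest of its group for Amd1 and Smox. Uninjured replicate 3 was low for Smox, at 94.37 FPKM. Day 21 replicate 5 was low for Odc1, at 14.02 FPKM. Day 7 replicate 5 was high for Sat1, at 47.92 FPKM, and for Paox, at 3.487 FPKM, and the same library had the highest macrophage marker sum of its group.

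For 3 genes limma called a difference between day 21 and day 3, which is the same test as given above. The difference, day 21 minus day 3, was −1.298 for Srm, −1.51 for Sat1 and −0.525 for Paox on the log2(FPKM + 1) scale. The genes were chosen with their differences from uninjured muscle known, and the same day 3 and day 21 samples enter those. The result is therefore not independent of that choice, and the differences from uninjured muscle remain a description.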

How the results depend on the processing

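Leaving out 1 sample at a time, the members called were 0 to 3 from day 3 to day 7, 0 from day 7 to day 14, 0 from day 14 to day 21 and 2 to 4 from day 3 to day 21, and the other genes of the pathway called were 9 to 15, 7 to 10, 8 to 9 and 1 to 4 on days 3, 7, 14 and 21. Day 7 replicate 3 alone raised the last count to 4, and day 3 replicate 4 alone lowered the day 3 count to 9. Without the 9 libraries nearer another group, 3 members were called from day 3 to day 7, 5 from day 3 to day 21, and 4 other genes at day 21. With only the groups compared, 5 members were called from day 3 to day 21 and 4 other genes at day 21. Other genes called at day 21 were 2 with a pseudocount of 0.1, 2 with a minimum of 1 FPKM and 0 under a common FPKM sum, which gave 4 at day 14. Quantile normalization called 6 at day 14 (4 higher, 2 lower).

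Signs turned without the 9 libraries for Amd1 (−0.7535), Amd2 (−0.2264) and Smox (−0.2852) from day 3 to day 7 and for Amd1 (0.7547), Smox (0.6012) and Sat1 (0.04937) from day 7 to day 14. Under a common FPKM sum they turned for Sms at day 7 against uninjured (0.09947), for Amd2 (−0.04883) and Sms (−0.3128) from day 3 to day 21, for Srm (−0.2227) and Azin1 (−0.09795) from day 7 to day 14, and for Odc1 (−0.1698), Sms (−0.1419) and Paox (−0.001401) from day 14 to day 21. Quantile normalization turned Odc1 from day 3 to day 7 (0.05439) and from day 14 to day 21 (−0.01328) and Sms from day 7 to day 14 (0.004356), and voom turned Srm from day 7 to day 14 (−0.03637). Odc1 from day 3 to day 7 also turned with a pseudocount of 0.1 (0.000571) and with the replicate block by number (0.03555) or letter (0.000478). Leaving out 1 sample at a time gave ranges that cross 0 for Amd2 (−0.01396 to 0.3505) and Odc1 (−0.3624 to 0.1449) from day 3 to day 7, for Amd1 (−0.8473 to 0.2367), Smox (−0.4856 to 0.3284), Srm (−0.1164 to 0.3231) and Sms (−0.1585 to 0.09864) from day 7 to day 14, and for Odc1 (−0.09685 to 0.3539) and Sms (−0.0177 to 0.2447) from day 14 to day 21. None of these but Sms at day 7 had been called, and the cause was not tested. Samples sharing a replicate number did not deviate together (median correlation −0.00315 over 51 pairs, 7 of 27 samples closest to their own number). The replicate block gave 3 other genes at day 21 by number and 4 by letter, and changed no count of called members (0, 0, 0 and 3).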
